A study of Mus musculus with 6 samples.

Results

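The 1801 acetylated domains described here are the wild-type H3K27ac peaks of at least 5 kb and under 10 kb from start to end on chromosomes 1 to 19 of RAW264.7 cells, a macrophage-like mouse cell line. They were chosen by their width in the wild-type peak list and were 6.29% of the 28644 wild-type peaks on these chromosomes, and the file held 29276 peaks in all. Acetylation of histone H3 at lysine 27 (H3K27ac) was profiled by ChIP-seq in 3 genotypes of this line, wild type (titled Naive), Bmal1 knockout (Bmal1KO) and Mfp2 knockout (Mfp2KO). The antibody was Abcam ab4729. All were grown in DMEM with 5% fetal bovine serum, and the labels name no stimulus. The labels leave unsaid if the knockout cells are clones or pools. For each wild-type domain, the number of knockout peaks inside it, the length they covered and their tags were summed.

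H3K27ac is written by the acetyltransferases CBP and p300 on nucleosomes next to active promoters and enhancers, and is removed by histone deacetylases. Most acetylated sites are short, and long unbroken domains form where a broad active promoter or several neighbouring enhancers are acetylated together. BMAL1 is the partner of CLOCK in the transcription factor that drives the circadian clock, and it binds E-box elements in DNA. MFP2, encoded by Hsd17b4, carries out the middle steps of peroxisomal β-oxidation, a pathway that shortens very long fatty acids and releases acetyl-CoA, the donor of acetyl groups for histones.

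With a single ChIP and a single input library per genotype there was no replicate spread, and differences between genotypes carry no test. Depth was 15.8 M ChIP tags for wild type and Mfp2KO and 12.5 M for Bmal1KO. Per the authors' headers, peaks held 38.7% of wild-type tags, 37.4% of Bmal1KO tags and 57.2% of Mfp2KO tags. Tags are given per 10 M tags of a library. The authors' minimum of 10, 9 and 10 tags in a 500 bp window amounts to 12.7, 14.4 and 12.7 tags per kb, and this is called the calling floor below. It applies to windows, so it is a reference level and no strict limit: joined regions can lie under it, and wild-type peaks went down to 9.60 tags per kb. Both knockouts are compared with the same wild-type library. Intervals of 95% for shares (Wilson) and medians (order-statistic) are taken over domains or peaks of 1 library and hold no error between libraries. Those of single domains cover the counting of tags only. Positions are in mouse build mm39. Gene annotation and sequence of that build were not used here, so no domain was assigned to a gene, the macrophage label was not checked against marker genes, and no sequence is shown.

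In wild type the domains covered 11.8 Mb, or 18.5% of the called sequence on chromosomes 1 to 19, and held 19.7% of the tags in peaks. The median width was 6204 bp, 791 domains were shorter than 6000 bp and 127 were 9 kb or longer. Tags per domain ran from 70.6 through a median of 317 to 2900. This was 13.2 to 398 tags per kb with a median of 47.6, and 1630 domains (90.5%) had over 2 times the calling floor of wild type. The median density was 52.5 tags per kb in the 10775 wild-type peaks of 2 to 5 kb and 47.1 in the 325 of 10 kb or more. Enrichment over input, the authors' own value per peak, had a median of 10.4-fold and a range of 4.08-fold to 40.1-fold. The nearest other wild-type peak was at a median distance of 2404 bp, against 4924 bp for all wild-type peaks. Another wild-type peak lay within 10 kb of 80.5% of domains, against 65.4% of all peaks. Another domain lay within 20 kb of 481 of the 1801.

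Just inside the lower limit, a domain on chromosome 4 (118281685-118286685) measured 5000 bp and had 343 tags, with 65.5% of its length called in Bmal1KO and 47.8% in Mfp2KO. Just outside it, a peak on chromosome 11 (50021190-50026187) measured 4997 bp and had 598 tags, with 72.7% and 96.6% called. Just inside the upper limit, a domain on chromosome 11 (67447209-67457193) measured 9984 bp and had 397 tags, with 58.0% and 56.7% called. Just outside it, a peak on chromosome 3 (20006590-20016597) measured 10007 bp and had 337 tags, with 86.2% and 61.1% called. A second region was taken on each side of each limit. At the lower limit it was called over 44.0% and 36.0% inside (chromosome 18), and 84.6% and 92.4% outside (chromosome 2). At the upper limit it was called over 52.3% and 41.5% inside (chromosome 16), and less, 43.2% and 29.3%, outside (chromosome 14). The share of a chromosome's peaks that were domains lay between 5.32% (4.15 to 6.80) on chromosome 16 and 7.50% (6.07 to 9.24) on chromosome 14, and these intervals overlap.

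Most domains held a peak in each knockout, but over less of their length. In all, 34 of 1801 domains, or 1.89% (1.35 to 2.63), had no Bmal1KO peak, where 38.9% of all wild-type peaks had none. For Mfp2KO it was 63 domains, or 3.50% (2.74 to 4.45), against 41.5%. Counting only knockout peaks of at least 6-fold enrichment, the shares of domains without a peak were 11.4% and 9.33%. All wild-type peaks include many short and weak ones, with a median of 1710 bp and 24.1 tags per kb. At the median domain 67.2% of the length (65.5 to 68.2) was called in Bmal1KO and 63.5% (61.6 to 65.3) in Mfp2KO. Summed over the domains, 7.55 Mb of the 11.8 Mb was called in Bmal1KO and 7.13 Mb in Mfp2KO. Less than 50% of the length was called in Bmal1KO for 457 domains, or 25.4%, against 51.7% of all wild-type peaks. In Mfp2KO it was 564 domains, or 31.3%, against 53.5%. At least 95% of the length was called for 117 domains in Bmal1KO, or 6.50% against 10.0% of all peaks, and for 135 in Mfp2KO, or 7.50% against 8.67%.

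**Figure D1:**
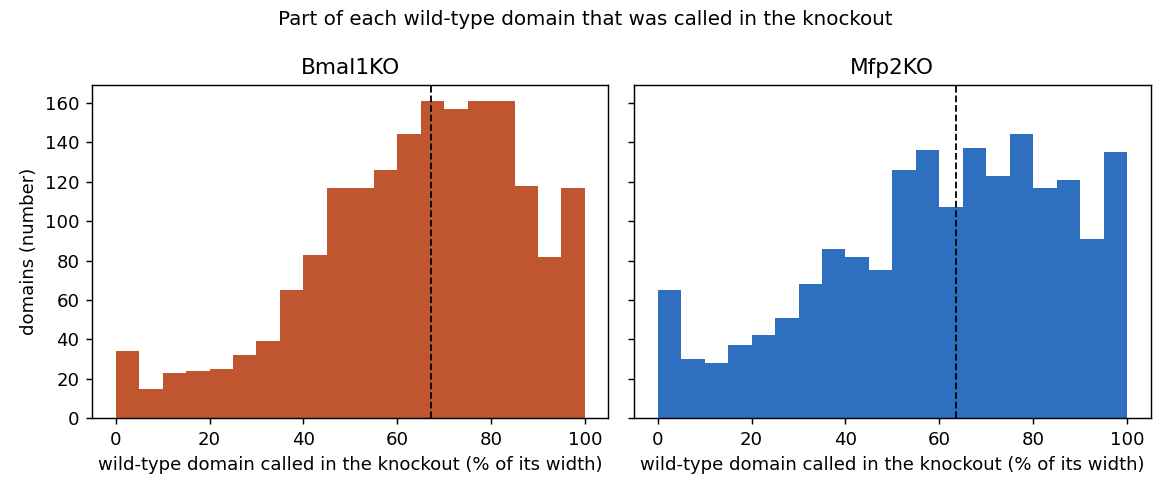
The 2 histograms show the number of the 1801 wild-type domains by the percent of their width called as a peak in Bmal1KO (left) and in Mfp2KO (right), in steps of 5%. The dashed lines mark the medians, 67.2% and 63.5%, and each knockout has a small group of domains at the far right with 95% or more called.

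Domains differed in how the called length was lower. In Bmal1KO, 675 domains (37.5%) held 2 or more separate peaks, against 5.24% of all wild-type peaks, and 124 of them held 3 or more. A single peak that left at least 500 bp uncalled at 1 end was found in 487 domains, and at both ends in 400. In Mfp2KO, 616 domains (34.2%) held 2 or more peaks, against 4.48% of all wild-type peaks, and 80 held 3 or more. There, 426 were shorter at 1 end and 473 at both. The share with 2 or more peaks was lower with gaps up to 1000 bp closed, at 22.4% in Bmal1KO and 20.2% in Mfp2KO, and with only knockout peaks of at least 6-fold enrichment, at 20.7% and 20.9%. Wider domains were split more often: in Bmal1KO 64.2% of the widest quintile (5 equal groups by width) and 19.8% of the narrowest held 2 or more peaks, and in Mfp2KO 57.5% and 16.5%. Wider domains also have more room for more than 1 peak. Of the wild-type peaks of 10 kb or more, 81.2% held 2 or more peaks in Bmal1KO and 78.2% in Mfp2KO. Of those of 2 to 5 kb it was 4.75% and 3.60%. The median percent of length called hardly moved with width, from 69.0% in the narrowest to 65.4% in the widest quintile for Bmal1KO, and from 64.8% to 62.8% for Mfp2KO. For Bmal1KO the longest peak touching a domain had a median of 3659 bp. It was wider than the domain itself in 92 cases, or 5.11%, against 14.4% of all wild-type peaks. For Mfp2KO the median was 3465 bp, and 156 were wider, or 8.66% against 15.1%.

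The uncalled sequence lay mostly at the ends. Of 4.29 Mb not called in Bmal1KO, 71.3% was at the ends of domains, 24.2% between peaks of a split domain and 4.51% in domains with no peak. Of 4.71 Mb in Mfp2KO, the shares were 71.9%, 20.3% and 7.85%. Left and right ends were alike, with 1.59 and 1.47 Mb in Bmal1KO and 1.71 and 1.68 Mb in Mfp2KO. When each domain was divided into 20 equal steps, the outermost steps were called in 25.7% and 25.4% of domains in Bmal1KO, and steps 10 and 11, at the middle, in 77.3% each. In Mfp2KO the outermost steps were called in 24.9% and 24.8% and the middle ones in 73.3% and 72.8%. Within split domains the longest gap between knockout peaks had a median of 1160 bp for Bmal1KO and 1220 bp for Mfp2KO.

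**Figure D2:**
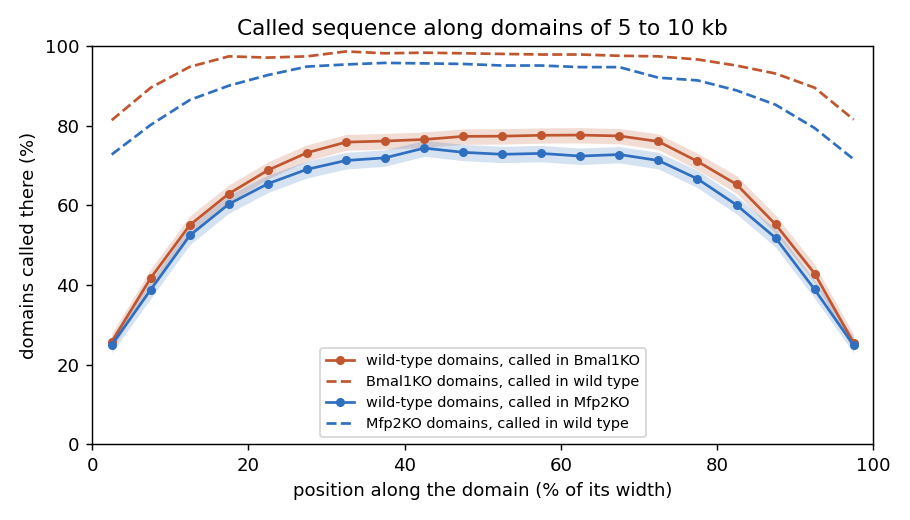
The horizontal axis is the position along a domain in percent of its width, and the vertical axis the percent of domains called there. Solid lines with points follow the 1801 wild-type domains in Bmal1KO and Mfp2KO with Wilson intervals shaded, and dashed lines follow knockout peaks of 5 to 10 kb in wild type. The solid lines go from about 25% at the ends to 77.3% (Bmal1KO) and 73.3% (Mfp2KO) in the middle, and the dashed lines lie above them all along.

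The width that chose the domains was measured in wild type, so the look-up was also run the other way. Bmal1KO had 649 peaks of 5 to 10 kb on chromosomes 1 to 19 and Mfp2KO had 752. Looked up in wild type, 456 of the Bmal1KO ones (70.3%) were called over at least 95% of their length, and the median was 100% of the length. Their longest wild-type peak was wider than the Bmal1KO peak in 478 cases (73.7%) and reached 10 kb or more in 153. Of the Mfp2KO ones, 392 (52.1%) were called over at least 95% in wild type, the median was 96.3% (93.9 to 97.7), and the longest wild-type peak was wider in 449 (59.7%). The shorter length was thus on the knockout side for each choice of list. For tags this was not so in either knockout. Per 10 M tags of a library, called wild-type tags were a median of 1.01 times (0.966 to 1.05) the knockout tags in the Bmal1KO ones. In the Mfp2KO ones they were 0.580 times (0.554 to 0.605). Peak tags of Mfp2KO summed to 1.47 times wild type, so the second value would be higher as a share of peak tags. The Bmal1KO ones were called over a median of 86.2% in Mfp2KO, and the Mfp2KO ones over 81.4% in Bmal1KO.

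Wild-type peaks of 10 kb or more were called over a median of 65.6% (63.2 to 68.3) in Bmal1KO and 61.1% (58.2 to 63.9) in Mfp2KO, and both intervals overlap those of the domains of 5 to 10 kb. Their tag ratios were lower than those of the domains given below, at 0.524 (0.4997 to 0.564) in Bmal1KO and 0.682 (0.603 to 0.788) in Mfp2KO. Peaks of 2 to 5 kb were called over a median of 78.0% (77.5 to 78.7) in Bmal1KO and 72.1% (71.6 to 72.6) in Mfp2KO. Of these, 6.65% had no Bmal1KO peak and 9.61% no Mfp2KO peak. Over all wild-type peaks, short ones included, the median called length was 46.4% and 41.0%.

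Tags in the called parts were below wild type at most domains in Bmal1KO and spread widely on both sides of wild type in Mfp2KO. The median ratio of called tags to wild-type tags was 0.617 in Bmal1KO (0.594 to 0.639), with quartiles of 0.419 and 0.891. In Mfp2KO it was 0.888 (0.850 to 0.927), with quartiles of 0.377 and 1.46. In Bmal1KO 624 domains (34.6%) had at most 0.5 times the wild-type tags, against 55.0% of all wild-type peaks, and no domain had 2 times or more, against 1.23%. The highest ratio was 1.96. In Mfp2KO 582 domains (32.3%) had at most 0.5 times, against 54.4%, and 186 (10.3%) had 2 times or more, against 14.0%. Summed over all domains, tags were 0.805 times wild type in Bmal1KO and 1.21 times in Mfp2KO, or 0.837 and 0.820 times as a share of peak tags, so that the direction in Mfp2KO depends on the scale. With all domains pooled, the called part was denser than the whole wild-type domains. The mean was 80.1 tags per kb in Bmal1KO and 127 in Mfp2KO against 63.5 in wild type. Over domains with a Bmal1KO peak, the called part had a median of 44.2 tags per kb, and the whole wild-type domain a median of 48.2. Over domains with an Mfp2KO peak these medians were 74.99 and 48.9. The medians were taken in each library separately and are not ratios per domain.

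Tags are known only where a peak was called, so these ratios are lower limits. With all uncalled sequence counted at the calling floor, the median became 0.738 in Bmal1KO and 0.973 in Mfp2KO. The number of domains at 0.5 or less became 89 (4.94%) in Bmal1KO, against 3.77% of all wild-type peaks, and 222 (12.3%) in Mfp2KO, against 5.88%. Counted this way, a region with under 2 times the floor in wild type can hardly reach 0.5. Of the domains, 90.5% had over 2 times the wild-type floor, while all wild-type peaks had a median of 24.1 tags per kb. The shares of domains and of all peaks can therefore not be compared directly. The scale matters for Mfp2KO, whose library had more of its tags in peaks: peak tags on chromosomes 1 to 19 summed to 1.47 times wild type there, a shift of 0.56 on the log2 scale, and to 0.962 times in Bmal1KO. With tags taken as a share of the tags in peaks, the medians were 0.642 in Bmal1KO and 0.604 in Mfp2KO. Mfp2KO ratios between 1 and 1.47 thus turn to below 1 on that scale. The number at 2 times or more became 3 in Bmal1KO and 26 in Mfp2KO. Of all peak tags the domains held 16.5% in Bmal1KO and 16.2% in Mfp2KO, against 19.7% in wild type.

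**Figure D3:**
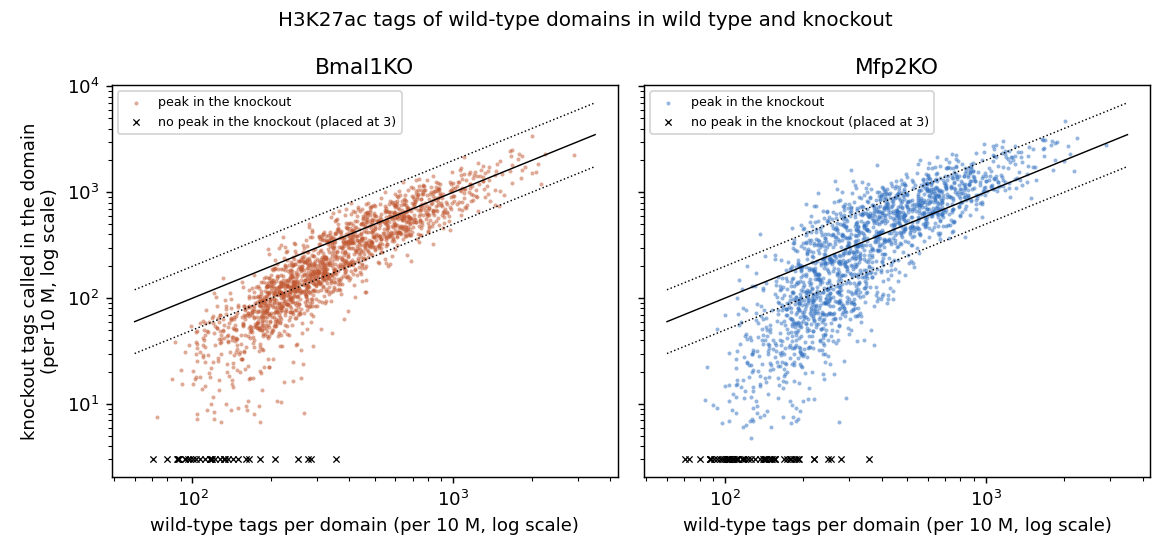
Each point is 1 of the 1801 domains, with its wild-type tags on the horizontal and the tags called inside it in Bmal1KO (left) or Mfp2KO (right) on the vertical axis, both per 10 M tags on log scales. The solid line marks equal tags, the dotted lines 0.5 and 2 times, and crosses are the 34 and 63 domains with no peak, placed at an arbitrary height. In Bmal1KO no point lies above the upper dotted line, while 186 do in Mfp2KO, or 26 with tags as a share of peak tags.

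Sparse and dense domains differed in both knockouts. In the quintile with the fewest wild-type tags per kb, at a median of 25.9, a median of 39.6% of the length was called in Bmal1KO and 27.5% in Mfp2KO. In the densest quintile, at 126 tags per kb, it was 81.4% and 77.7%. The tag ratio in Bmal1KO went from 0.320 (0.295 to 0.353) through 0.473, 0.588 and 0.851 to 0.957 (0.901 to 0.998) in the densest quintile. In Mfp2KO it went from 0.217 (0.187 to 0.246) through 0.475, 0.934 and 1.33 to 1.36 (1.27 to 1.43). With uncalled sequence at the floor, the 5 quintiles from sparse to dense were at 0.699, 0.640, 0.679, 0.912 and 0.976 in Bmal1KO and at 0.630, 0.616, 1.00, 1.38 and 1.38 in Mfp2KO. The stepwise order of the called tags was thus not seen among the sparse quintiles at the floor. The values above 1 in Mfp2KO hold per 10 M tags of the library and not as a share of peak tags, where the 2 densest quintiles were at 0.905 and 0.927. The wild-type density is both the basis of the quintiles and the divisor of the ratio. Of the 34 domains without a Bmal1KO peak, 27 were in the sparsest quintile, as were 55 of the 63 without an Mfp2KO peak.

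Input DNA moved with the same order. Input tags per kb come from the library without ChIP. They did not set the width of a domain, but each peak had to pass 4 times the input. From the quintile with least wild-type input (3.97 tags per kb, as counted) to that with most (13.2), the tag ratio went from 0.378 to 0.962 in Bmal1KO and from 0.236 to 1.54 in Mfp2KO. With uncalled sequence at the floor it went from 0.666 to 0.981 and from 0.558 to 1.55. The median wild-type density went from 28.9 to 103 tags per kb over the same quintiles, so density and input moved together. As a share of peak tags, the quintile with most input was at 1.05 in Mfp2KO. Input also differed between the libraries at the same domains. In the 135 domains called over at least 95% in Mfp2KO, input per 10 M tags was 1.17 times that of wild type (1.12 to 1.26), and ChIP tags were 1.61 times. In the 117 such domains of Bmal1KO, input was 0.921 times (0.887 to 0.991) and ChIP tags 1.03 times. The part of input in the tag ratios was not tested.

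**Figure D4:**
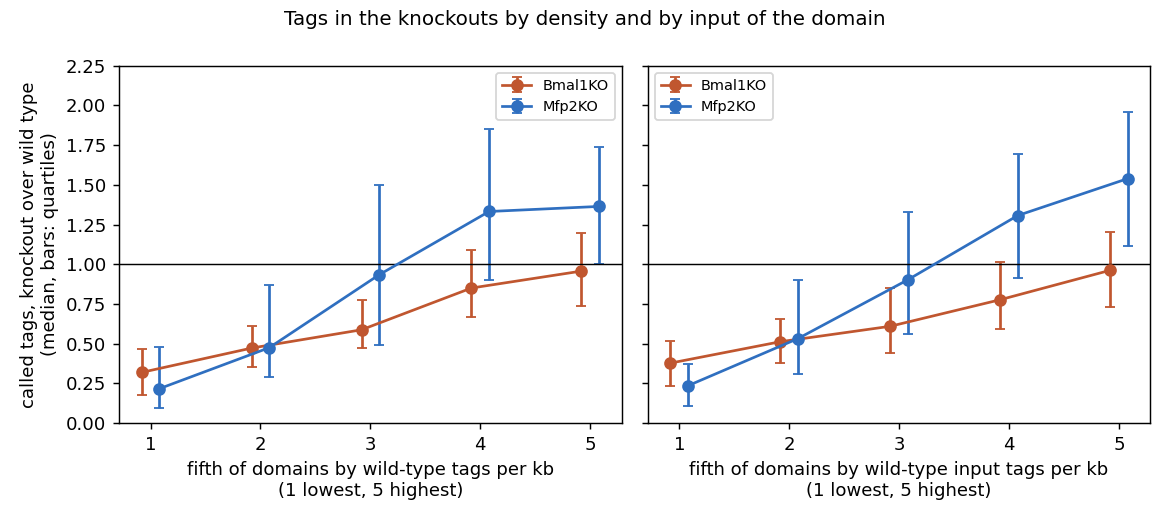
The vertical axis is the ratio of called knockout tags to wild-type tags, with points at the median and bars at the quartiles of each quintile of the domains, ordered by wild-type ChIP tags per kb (left) and by wild-type input tags per kb (right). Bmal1KO goes from 0.320 to 0.957 on the left, and Mfp2KO from 0.217 to 1.36, crossing 1 between quintiles 3 and 4. As a share of peak tags Mfp2KO stays below 1 on the left, at 0.927 in quintile 5.

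The 6 domains with most wild-type tags were called over more than 50% of their length in each knockout, with ratios on both sides of 1. The strongest, on chromosome 4 (133477687-133486562, 8875 bp), had 2900 wild-type, 2267 Bmal1KO and 2814 Mfp2KO tags, with 82.6% and 81.8% of its length called. Values below follow the order wild type, Bmal1KO, Mfp2KO. On chromosome 17 (27771364-27781301) there were 2249, 2286 and 3260 tags, and the whole of the 9937 bp was called in each knockout. On chromosome 17 (5043166-5051188) there were 2175, 1204 and 1579 tags. This domain was lower in both knockouts, with 72.0% and 55.8% of its 8022 bp called and log2 ratios of -0.85 (95% counting interval -0.94 to -0.77) in Bmal1KO and -0.46 (-0.54 to -0.39) in Mfp2KO. On chromosome 17 (34335703-34344436) both knockouts were instead above wild type, with 2010, 3412 and 4743 tags over 8733, 7500 and 7720 bp. The log2 ratios there were 0.76 (0.70 to 0.83) and 1.24 (1.18 to 1.30). The remaining ones of the 6 strongest lay on chromosome 7 (79672072-79680519), with 2116, 1831 and 2309 tags, and on chromosome 11 (102206146-102211937), with 2073, 1553 and 2727 tags. Each of the 6 held 1 unbroken peak in each knockout. As a share of peak tags, Mfp2KO ratios above 1 turned to below 1 on chromosome 17 at 27771364 (1.45 to 0.985), on chromosome 7 (1.09 to 0.742) and on chromosome 11 (1.31 to 0.894), and kept their direction at the other domains of the 6.

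The 4 highest ratios in Bmal1KO were 1.83 to 1.96, in domains where less than the full wild-type length was called. The highest, on chromosome 19 (5536859-5542548), had 642 wild-type, 1261 Bmal1KO and 1726 Mfp2KO tags, and 5110 of its 5689 bp were called in Bmal1KO. On chromosome 6 (117881228-117887085) there were 1098, 2153 and 2823 tags, with 4962 of 5857 bp called in Bmal1KO and 4033 in Mfp2KO. On chromosome 9 (64155301-64162287) there were 406, 797 and 1048 tags, and the domain was split into 2 peaks in each knockout. On chromosome 11 (83188166-83194845) there were 347, 636 and 1090 tags, also in 2 peaks in each knockout. All 4 were also above wild type in Mfp2KO, with ratios of 2.57 to 3.14, or 1.75 to 2.13 as a share of peak tags.

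The 4 highest ratios in Mfp2KO were 4.31 to 5.27, at domains with ratios of 1.03 to 1.59 in Bmal1KO. On chromosome 9 (108442235-108448005, 5770 bp) wild type had 306 tags, Bmal1KO 323 and Mfp2KO 1611, a log2 ratio of 2.40 (2.26 to 2.54) in Mfp2KO. Enrichment over input in wild type was 6.78-fold there, below the median domain. On chromosome 3 (102924128-102929792) there were 264, 272 and 1272 tags. Bmal1KO covered the whole of this domain, whereas Mfp2KO had 2 peaks over 3247 of 5664 bp, at 392 tags per kb against 46.7 in wild type. A second domain of chromosome 3 (89985987-89991570) had 384, 611 and 1802 tags. On chromosome 2 (34688803-34693903) there were 227, 301 and 980 tags, and Mfp2KO covered all 5100 bp. Input per kb was higher in Mfp2KO than in wild type at each of these, for example 14.0 against 7.81 per 10 M tags at the first. The Mfp2KO input is that of the called part and the wild-type input that of the whole domain, and these regions differ except on chromosome 2. As a share of peak tags the ratios at the 4 domains were 2.93 to 3.58.

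At the lowest ratios of called tags, a knockout held a single short peak in an otherwise uncalled domain. In Mfp2KO the lowest was on chromosome 12 (78964860-78973205), with 275 wild-type tags over 8345 bp, 127 tags over 3873 bp in Bmal1KO and 6.81 tags over 398 bp in Mfp2KO. On chromosome 3 (122132605-122139927) there were 292 wild-type, 168 Bmal1KO and 11.4 Mfp2KO tags. In Bmal1KO the lowest was on chromosome 7 (132287610-132296398), with 267 tags over 8788 bp in wild type, 8.24 over 469 bp in Bmal1KO and 37.7 over 1912 bp in Mfp2KO. On chromosome 16 a pair of neighbouring domains was among the 6 lowest in Bmal1KO. The first (77095972-77102593) had 182, 6.78 and 7.60 tags, and the second (77123096-77129705) had 173, 7.98 and 89.4 tags. With uncalled sequence at the floor, the ratio at these domains was 0.392 and 0.321 in Mfp2KO for chromosomes 12 and 3, and 0.479, 0.520 and 0.554 in Bmal1KO for chromosomes 7 and 16. A peak also needed 4 times the input, and with 4 times the wild-type input over the uncalled part the ratio would be 0.882 in Bmal1KO on chromosome 7, and 0.417 and 0.555 in Mfp2KO on chromosomes 12 and 3. On chromosome 16 the input gave no higher value.

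Among domains with no peak in either knockout, the 6 with most wild-type tags had 356, 278, 254.5, 117, 112 and 103.5 tags. Over all 1801 domains the median was 317 tags and the lower quartile 214, so only the first of the 6 was above the median. The one with most, on chromosome 6 (49187158-49193235, 6077 bp), had 356 tags in wild type and no peak in either knockout, with the nearest Bmal1KO peak 1970 bp and the nearest Mfp2KO peak 46116 bp away. Counted at the floor, its ratio would be 0.245 in Bmal1KO and 0.216 in Mfp2KO. Its wild-type input was high, at 93.5 tags, and enrichment was 5.66-fold, so that 4 times the input would allow a ratio of 0.707 in each. On chromosome 17 (72172155-72178190) there were 278 tags in wild type at 7.59-fold enrichment, and the nearest knockout peaks were 246730 bp (Bmal1KO) and 179869 bp (Mfp2KO) away. The ratio at the floor was 0.311 in Bmal1KO and 0.275 in Mfp2KO, and 0.527 at 4 times the input. It stood alone in wild type as well, with the next wild-type peak 184427 bp away.

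Ranked with uncalled sequence at the floor, a choice made after the values were seen, further domains were low in 1 knockout and closer to wild type in the other. On chromosome 2 (35145340-35151187) wild type had 284 tags and Mfp2KO 268 tags over 91.9% of the domain, at a ratio of 0.945, or 0.642 as a share of peak tags. Bmal1KO had its nearest peak 7370 bp away, and its ratio there was 0.296 at the floor, or 0.521 at 4 times the wild-type input. On chromosome 18 (78317913-78323181) wild type had 219 tags and Bmal1KO 136 tags over 93.9% of the domain. The nearest Mfp2KO peak was 131727 bp away, and its ratio was 0.304 at the floor and 0.350 at 4 times the wild-type input. On chromosome 13 (43937148-43945155) wild type had 382 tags in 1 peak of 8007 bp. Bmal1KO held 4 short peaks with 64.2 tags over 3198 bp, and Mfp2KO held 3 peaks with 365 tags over 4289 bp, at 20.1 and 85.0 tags per kb against 47.6 in wild type.

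This domain on chromosome 13 was also among those broken into most pieces. On chromosome 14 (25483167-25491335) the 8168 bp of wild type held 4 Bmal1KO peaks over 5785 bp and 3 Mfp2KO peaks over 6639 bp, with 236, 152 and 234 tags. On chromosome 8 (25540802-25550561, 9759 bp) there were 4 and 3 peaks over 3154 and 4248 bp, with 283, 90.1 and 258 tags. On chromosome 10 (111830200-111839187, 8987 bp) there were 3 and 4 peaks over 5718 and 3823 bp, with 214, 114 and 79.5 tags. Domains with 2 or more peaks had a median of 40.3 wild-type tags per kb for Bmal1KO and 42.5 for Mfp2KO, against 47.6 over all domains. Those with 1 peak and shorter at both ends were as sparse, at 41.1 and 39.5, those without a peak had 20.5 and 21.2, and those called over at least 95% had 95.1 and 66.1.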

How the data were processed

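H3K27ac ChIP and input libraries of 3 genotypes gave 3 peak lists, 1 per genotype, with no pooling. Per the file headers, the peak caller was HOMER findPeaks with the histone setting and matched input, which joined 500 bp windows into regions at 4-fold enrichment or more. Per the submitters' processing notes, the tools were HOMER 5.1, MACS3 3.0.3, Picard 3.4.0, SAMtools 1.23, BWA 0.7.19-r1273 and fastp 1.0.1, and the build mm39. The notes list them without roles. The normalized deposited tag count is a signal, scaled by the authors to a library of 10 M tags. Input tags, also a deposited signal, were unscaled for wild type and Mfp2KO but on the scale of the ChIP depth for Bmal1KO, and were brought to 10 M tags here where libraries are compared. The deposited fold is the authors' ratio over input. The authors' p-value over input and the findPeaks score, both deposited, were not used for any result.

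Knockout peaks overlapping a domain by at least 1 bp were clipped to it, and their tags shared out by length. Sums were checked on 300 simulated domains. Calculations used Python 3.11.15, NumPy 2.4.6, pandas 2.3.3 and SciPy 1.17.1. The domains and summaries were chosen with earlier results of these data known. Named domains were the 6 with most wild-type tags, the 6 lowest and 4 highest ratios per knockout, the 4 with most knockout peaks, the 6 with most tags among those without a knockout peak, and those at the width limits. Not all are printed. Domains without a peak tie at a ratio of 0 and were left out of the lowest ratios. The calling floor, the input limit and the ranking by the floor were added after the data were seen. Genes and marker lists were not analysed, since the reference tables are of build GRCm38 and the peaks of mm39.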

Additional observations from a re-analysis of the deposited data

How the results depend on the processing

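No paired analysis was possible because each group had 1 library. The main values are the share of domains with no knockout peak (1.89% in Bmal1KO, 3.50% in Mfp2KO), the median percent of length called (67.2%, 63.5%), the share with 2 or more peaks (37.5%, 34.2%), the median tag ratio (0.617, 0.888) and the share called at their centre (77.4%, 73.1%). No setting that kept the wild-type domains took a median tag ratio across 1, except the input limit in Mfp2KO. With widths of 6 to 9 kb, the share with no peak was 1.02% and 2.60%, with 2 or more peaks 44.7% and 41.7%, and called at the centre 74.7% and 70.4%. With only knockout peaks of at least 6-fold enrichment, no peak was found in 11.4% and 9.33%, the length called was 60.3% and 59.7%, 20.7% and 20.9% had 2 or more peaks, 68.8% and 68.6% were called at the centre, and the Bmal1KO ratio was 0.580. With only domains of at least 6-fold enrichment, the Bmal1KO length was 68.2% and centre 79.9%, and 2.72% had no Mfp2KO peak. With at least 50% of a knockout peak inside, 30.9% had 2 or more Mfp2KO peaks. With gaps up to 1000 bp closed, lengths were 69.3% and 66.1% and 22.4% and 20.2% had 2 or more peaks. As a share of peak tags the ratios were 0.642 and 0.604, with uncalled sequence at the floor 0.738 and 0.973, and at 4 times the wild-type input 0.778 and 1.02. Knockout peaks of 5 to 10 kb looked up in wild type had no peak in 0.00% and 0.399%, lengths of 100% and 96.3%, 2 or more peaks in 7.24% and 16.1%, ratios of wild type to knockout of 1.01 and 0.580, and were called at the centre in 98.2% and 95.2%. Adding chromosome X left each of these values inside its interval, as did counting all tags of overlapping peaks for the tag ratios. The floor and input limits were added after the data were seen, and the cause of these shifts was not tested. Of 63 ratios at named domains, 32 moved outside their counting interval with uncalled sequence at the floor and 22 as a share of peak tags, where Mfp2KO ratios between 1 and 1.47 turn to below 1. Depth limits what is seen near the calling floor, at 14.4 tags per kb in Bmal1KO and 12.7 in the other lists, though joined regions can lie under it.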

Other observations

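In domains of middle wild-type density, the Mfp2KO ratio of called tags was higher where wild-type input was higher. Domains were divided into 3 equal groups by wild-type tags per kb, and each of these into 3 by wild-type input per kb, a split chosen with the values in view. In the group of middle density, the Mfp2KO ratio was 0.466 (0.421 to 0.534) with low input, 0.899 (0.818 to 0.990) with middle input and 1.47 (1.34 to 1.64) with high input, while wild-type density went only from 44.2 to 51.7 tags per kb. In Bmal1KO the same 3 groups were at 0.530, 0.581 and 0.725. In the sparsest group the Mfp2KO ratio was 0.185 with low and 0.590 with high input, and in the densest group 1.13 and 1.54, where density itself went from 88.0 to 128 tags per kb. With uncalled sequence at the floor, the Mfp2KO ratio with low and high input was 0.560 and 0.787 in the sparsest group and 0.586 and 1.52 in the middle one. In Bmal1KO the sparsest group was at 0.683, 0.676 and 0.682 at the floor. These ratios are per 10 M tags of the library. As a share of peak tags the group of middle density went from 0.317 to 1.00 in Mfp2KO. The wild-type input also sets the tags that each wild-type domain needed to pass 4 times the input.

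The knockouts also differed from each other inside these domains. In the 1719 domains with a peak in each, Mfp2KO had a median of 1.35 times the Bmal1KO tags (1.32 to 1.40). All peak tags on chromosomes 1 to 19 summed to 1.53 times, which is a ratio of sums and not comparable with that median. As a part of all peak tags, the domains held nearly the same in each, 16.5% in Bmal1KO and 16.2% in Mfp2KO. Of the 1719 domains, Mfp2KO covered less of the domain than Bmal1KO in 995, more in 712 and as much in 12.

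Along the genome, 71 windows of 5 Mb held at least 8 domains. The window from 20 to 25 Mb of chromosome 16 held 13 domains at a median of 27.2 wild-type tags per kb. There a median of 36.0% of the length was called in Mfp2KO, with 4 domains without a peak, and 62.7% in Bmal1KO, with 1 domain without a peak. From 115 to 120 Mb of chromosome 9 the order was the reverse, with 41.1% called in Bmal1KO and 52.2% in Mfp2KO over 8 domains. From 85 to 90 Mb of chromosome 8 there were 8 dense domains at 94.4 tags per kb, with 77.4% called in Bmal1KO and 89.7% in Mfp2KO. Each is an extreme of the 71 windows in at least 1 of the values given here. The first had the lowest wild-type density and the most domains without an Mfp2KO peak. The second had the least length called in Bmal1KO and the third the most in Mfp2KO.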
